A study of Homo sapiens with 6 samples.

Results

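The genes described here were 7 integrin subunit genes (ITGA4, ITGA5, ITGA6 and ITGAV of the alpha class, and ITGB1, ITGB2 and ITGB7 of the beta class) and 3 genes of adhesion partners, ICAM1, CD47 and SELPLG. They were taken by gene symbol from a count table of 20030 genes, in which each of the 10 had 1 entry. RNA-seq was done on 6 libraries from cells labelled H929, which stands for NCI-H929, an established human multiple myeloma line. The 3 IGF2BP1-KD libraries came from cells in which IGF2BP1, an RNA-binding protein that reads the m6A mark on mRNAs, was knocked down, and the 3 IGF2BP1-NC libraries (the controls) came from negative control cells. Per the methods, the knockdown cells were stable transfectants made with lentivirus, and no vector was described for the negative control cells. The knockdown shRNA was driven from a U6 promoter in a vector with puromycin resistance, and 2 shRNA target sequences were listed without saying which of them these libraries carried. No age, dose or time after transduction was given in the labels. They also did not say whether replicates were separate cultures, so p-values here measure the spread between these libraries, which may be technical.

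Integrins are heterodimers of 1 alpha and 1 beta chain that hold cells to extracellular matrix or to other cells and link these contacts to actin through talin, kindlin and other adaptors. In blood cells, ITGB1 pairs with many alpha chains, ITGB2 pairs with the leukocyte alpha chains, and ITGB7 pairs with ITGA4 or ITGAE. In multiple myeloma, binding of plasma cells to fibronectin and VCAM1 in the bone marrow through ITGA4 with ITGB1 or ITGB7 is a well known contact, and SELPLG (PSGL-1) is the selectin ligand through which such cells roll on endothelium.

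Library totals lay between 16885449 and 18112179 counts, and a count of 0 at this depth allowed up to 3 counts, or 0.166 to 0.178 CPM (counts scaled to a common library size). Such limits, and the intervals given for ratios of counts, cover counting error only. IGF2BP1 itself had 7550, 6904 and 8055 counts in IGF2BP1-NC libraries 1, 2 and 3 and 2193, 1980 and 2019 after knockdown. IGF2BP1-NC library 1 stood apart from the other libraries of its group. In it, 49 genes were at least 2-fold above both of the others, against 0 to 14 genes in each of the other 5 libraries, and ITGA5 was 1 of these 49 genes. Results that rest on this library are therefore given with and without it. Of 13 plasma cell markers, 7 had at most 3 counts in every library (TNFRSF17, CD38, IRF4, POU2AF1, CD27, TNFRSF13B and FCRL5). Above 1 CPM in all 6 libraries were 3 of the plasma cell markers, against all 13 erythroid markers. XBP1 had the highest FPKM of the plasma cell markers. The label of a plasma cell line was thus not borne out by most of these markers, and the libraries are called by their labels throughout. Summed over each list, plasma cell markers ranged from 77.2 to 162 CPM in IGF2BP1-NC and from 81.1 to 87.2 in IGF2BP1-KD, and erythroid markers from 8360 to 9996 and from 9312 to 10146 CPM.

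Levels of different genes were compared as FPKM, the reads per kilobase of gene divided by the library's reads, as deposited by the authors. In IGF2BP1-NC libraries ITGB1 was the highest of the 10 genes with 62.0 ± 2.52 FPKM (mean ± SD, n = 3), followed by ITGA5 with 31.1 ± 14.9 and ICAM1 with 12.8 ± 1.04. ITGAV had 7.01 ± 0.662 FPKM, SELPLG 6.07 ± 1.06 and CD47 5.12 ± 0.296, and in this order the library values of each neighbouring pair overlapped. The levels of ITGA4 (0.728 ± 0.0541 FPKM) and ITGB7 (0.200 ± 0.0331) were lower and apart from each other. ITGA6 (0.0718 ± 0.0361 FPKM) and ITGB2 (0.0673 ± 0.0322) were lowest and overlapped. In IGF2BP1-KD libraries the order changed at 2 points. SELPLG, with 18.5 ± 6.13 FPKM, came second after ITGB1 (51.3 ± 0.979) and overlapped with ITGA5 (17.3 ± 1.03). ITGB2 (0.555 ± 0.314 FPKM) overlapped with ITGA4 above it (0.560 ± 0.122) and with ITGB7 below it (0.482 ± 0.231). ITGA6 stayed lowest with 0.0635 ± 0.0442 FPKM.

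**Figure D1:**
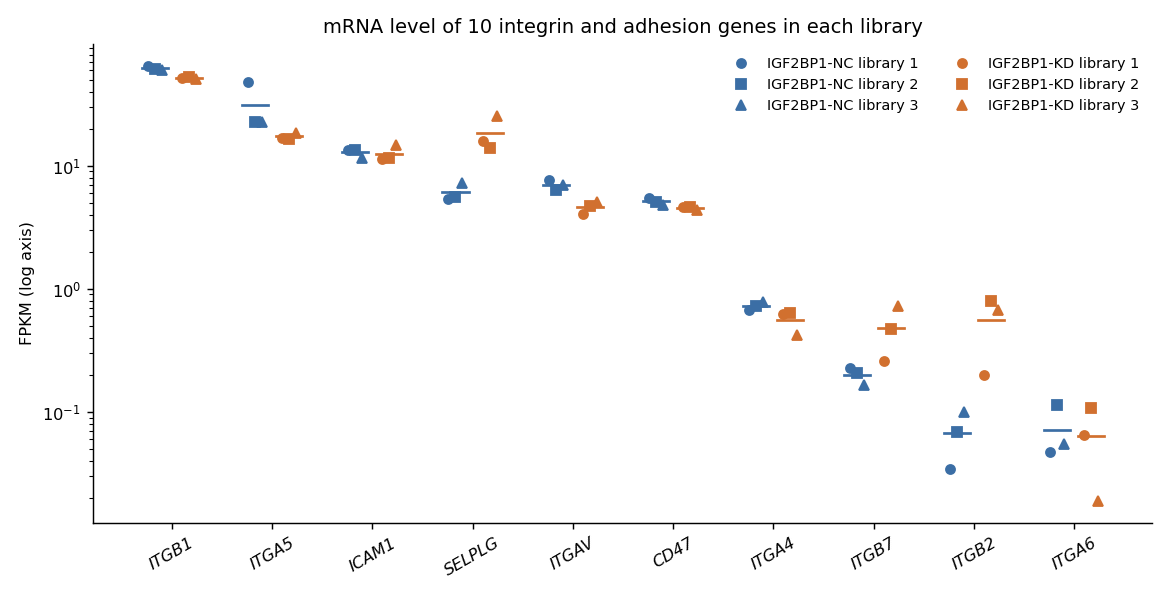
FPKM (log axis) of the 10 genes in each of the 6 libraries, ordered by mean, with blue symbols for IGF2BP1-NC, orange symbols for IGF2BP1-KD and a bar at each group's mean. ITGB1 sits highest in both groups, ITGA5 shows 1 high IGF2BP1-NC library (48.3 FPKM), and the orange symbols lie above the blue ones for SELPLG, ITGB7 and ITGB2.

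To compare the groups, counts were scaled with TMM factors and tested with the quasi-likelihood test of edgeR (two-sided), with Benjamini-Hochberg adjustment over all 11994 genes that passed its filter on low counts, and a gene was called at an adjusted p under 0.05. Of the 10 genes 9 were tested, and ITGA6 did not pass the filter. ITGB2, SELPLG and ITGB7 were called higher in IGF2BP1-KD, ITGAV and ITGB1 were called lower, and ITGA4, ITGA5, CD47 and ICAM1 were not called. Over all tested genes 13.7% were called higher and 14.5% lower. The counts scaled to library size did not overlap between the groups for 8 of the 9 genes (all but ICAM1), against 45.6% of all tested genes. The 10 genes were chosen with earlier results of these data known, so these shares cannot show that they differ more often than other genes. ITGB2 passed the filter through the IGF2BP1-KD libraries alone, none of its IGF2BP1-NC libraries being over the filter's minimum. Its place among the called genes and among those without overlap follows in part from the filter. As this is RNA of whole cultures, fewer cells that express a gene and less of its RNA per cell cannot be told apart.

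**Figure D2:**
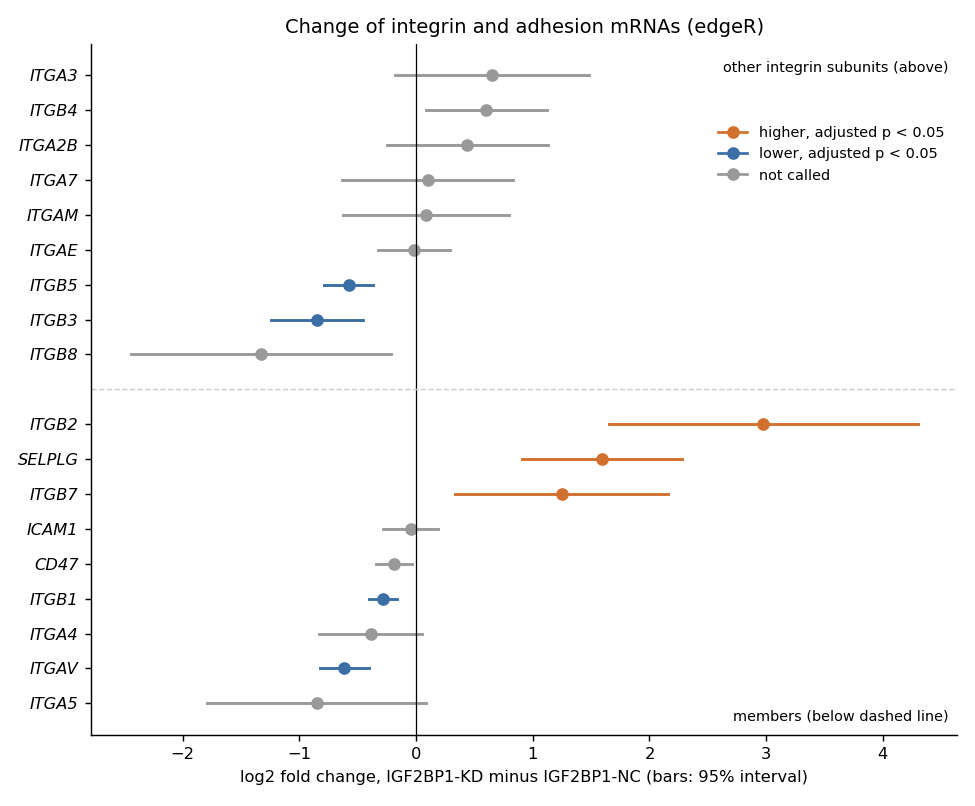
Log2 fold change (IGF2BP1-KD minus IGF2BP1-NC, dot) with its 95% interval (bar) in edgeR for the 9 tested members and for 9 other tested integrin subunits, coloured by call at an adjusted p under 0.05. ITGB2 (2.98), SELPLG (1.59) and ITGB7 (1.25) lie to the right of 0, and ITGAV (-0.61), ITGB1 (-0.28), ITGB5 (-0.58) and ITGB3 (-0.85) lie to its left with intervals that do not reach it.

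Sequences upstream of 4 members are shown as the context of the genes whose counts fell (ITGAV and ITGB1) and of 1 whose counts rose (ITGB7). The window of ITGA5, which had 1 control library far above the others, is shown as well. Each window runs from 250 bases before to 50 bases after the RefSeq start of the gene on GRCh38.p14, 5′ to 3′ on the gene's own strand. RefSeq windows matched 8 of the 10 members (ITGB2 and SELPLG had no entry), and the first window is shown where a gene had several. They lie at chr12:54419217-54419516 (minus strand) for ITGA5, chr2:186589806-186590105 (plus strand) for ITGAV, chr10:32958181-32958480 (minus strand) for ITGB1 and chr12:53207202-53207501 (minus strand) for ITGB7. Capitals mark matches, on either strand, to an AP-1 site (TGAGTCA), an ETS core (CTTCCT) or a GC box (GGGCGG). No matches to a GATA site (AGATAA) or a TATA box (TATAAA) were in these 4 windows, and none of the marked matches overlapped.
ITGA5: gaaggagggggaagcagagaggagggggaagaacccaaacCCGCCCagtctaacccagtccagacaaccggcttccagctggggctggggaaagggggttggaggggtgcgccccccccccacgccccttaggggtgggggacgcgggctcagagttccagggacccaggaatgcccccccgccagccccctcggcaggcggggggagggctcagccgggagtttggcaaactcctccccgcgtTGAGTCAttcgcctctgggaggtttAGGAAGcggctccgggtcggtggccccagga
ITGAV: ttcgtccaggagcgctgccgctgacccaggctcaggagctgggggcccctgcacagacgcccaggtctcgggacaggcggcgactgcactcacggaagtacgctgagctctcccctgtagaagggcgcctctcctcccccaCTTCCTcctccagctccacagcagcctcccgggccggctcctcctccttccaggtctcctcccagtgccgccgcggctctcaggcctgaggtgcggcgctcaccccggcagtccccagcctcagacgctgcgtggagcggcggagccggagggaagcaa
ITGB1: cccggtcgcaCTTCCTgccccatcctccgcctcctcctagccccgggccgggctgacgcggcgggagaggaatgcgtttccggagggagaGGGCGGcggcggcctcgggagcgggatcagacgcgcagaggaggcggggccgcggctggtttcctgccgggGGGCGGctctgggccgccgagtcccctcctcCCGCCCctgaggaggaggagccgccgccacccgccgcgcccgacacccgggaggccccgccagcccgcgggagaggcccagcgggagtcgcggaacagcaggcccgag
ITGB7: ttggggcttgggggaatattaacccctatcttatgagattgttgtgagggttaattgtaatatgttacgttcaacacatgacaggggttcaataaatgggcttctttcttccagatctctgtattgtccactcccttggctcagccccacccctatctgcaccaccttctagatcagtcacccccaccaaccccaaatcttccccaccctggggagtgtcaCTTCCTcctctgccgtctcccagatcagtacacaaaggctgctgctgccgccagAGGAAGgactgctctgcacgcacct
The ITGA5 window held 1 AP-1 match, 1 ETS match and 1 GC box. That of ITGAV held 1 ETS match, that of ITGB1 1 ETS match and 3 GC boxes, and that of ITGB7 2 ETS matches. Among the 35116 RefSeq windows of this length, 4.95% held the AP-1 letters, 33.6% the ETS core and 45.0% the GC box, 10.3% the GATA letters and 11.5% the TATA box. A match is a run of letters only, and no binding was measured here.

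ITGAV, the alpha chain that pairs with several beta chains to bind vitronectin, fibronectin and latent TGF-beta, fell after knockdown. The gene lies at chr2:186590056-186680901. Its counts were 962, 803 and 904 in IGF2BP1-NC libraries 1, 2 and 3 and 527, 576 and 631 after knockdown. Each IGF2BP1-KD library was below each control library, and on the FPKM scale the means were 7.01 ± 0.662 and 4.61 ± 0.481. The fitted level was 34.6% lower (log2 fold change -0.61, SE 0.094, 95% interval -0.82 to -0.41, edgeR adjusted p = 0.00097). Leaving out each library in turn gave log2 fold changes between -0.68 and -0.53, all of them called.

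ITGA5, which pairs with ITGB1 to form the main fibronectin receptor, had 1 control library far above the others. It lies at chr12:54395261-54419266. Its 3611 counts in IGF2BP1-NC library 1 stood against 1697 and 1760 in libraries 2 and 3 of that group and 1296, 1212 and 1389 after knockdown. All 3 IGF2BP1-KD libraries were below all 3 control libraries. With all libraries the log2 fold change was -0.85 (SE 0.35, 95% interval -1.79 to 0.088, edgeR adjusted p = 0.152), and the gene was not called. Without IGF2BP1-NC library 1 it was -0.40 and called (edgeR adjusted p = 0.000708). Over the 5 fits that left out another library, as over the fit without this one, the sign was negative, and the values of all 6 lay between -1.03 and -0.40.

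ITGA4, the alpha chain of the VCAM1 receptor and of the gut homing receptor, was present at a low level, as its FPKM given above shows. It lies at chr2:181457205-181538940. There were 90, 96 and 109 counts in the controls and 85, 83 and 56 after knockdown. Scaled to library size the groups did not overlap, yet the log2 fold change of -0.39 had a 95% interval that took in 0 (SE 0.20, -0.83 to 0.055, edgeR adjusted p = 0.174). Without IGF2BP1-KD library 3 it was -0.21 (edgeR adjusted p = 0.458). Its exons overlap by 2813 bases with CERKL on the opposite strand, which had at most 1 count in any library.

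ITGA6, the alpha chain of laminin receptors, was close to the limit of detection. It lies at chr2:172427336-172506459. Its counts were 5, 12 and 6 in the controls and 7, 11 and 2 after knockdown. The groups overlapped, and the ratio of summed counts per library total was 0.881 (exact 95% interval 0.459 to 1.68). A difference within this interval was not detectable at this depth.

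ITGB1, the beta chain shared by the matrix-binding integrins, fell by a small amount. It lies at chr10:32900318-32958230. Its counts were 4590, 4330 and 4460 in the controls and 3760, 3598 and 3573 after knockdown. No IGF2BP1-KD library reached the lowest control library. The fitted level was 17.9% lower (log2 fold change -0.28, SE 0.056, 95% interval -0.41 to -0.16, edgeR adjusted p = 0.0038), and each library left out in turn gave -0.30 to -0.26, called every time. A pseudogene of this gene, ITGB1P1, is annotated, and how the authors' counting assigned reads that fit both is not given in the sources used here.

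ITGB7, which pairs with ITGA4 or ITGAE, was low in all libraries. It lies at chr12:53191323-53207251. The counts of 12, 11 and 9 in the controls compared with 14, 24 and 38 after knockdown. The groups did not overlap, but IGF2BP1-KD library 1 had only 2 counts more than IGF2BP1-NC library 1. Summed counts per library total were 2.41 times as high in IGF2BP1-KD (exact 95% interval 1.57 to 3.76), and the fitted log2 fold change was 1.25 (SE 0.41, 95% interval 0.34 to 2.16, edgeR adjusted p = 0.0433). This call was lost in 8 of the 13 alternatives that could be run on it, among them DESeq2 (adjusted p = 0.0841) and the fits without IGF2BP1-NC library 2 or 3 or IGF2BP1-KD library 2 or 3. Without IGF2BP1-KD library 3 the log2 fold change was 0.84 with an adjusted p of 0.182 in edgeR. Its exons share 1881 bases with ZNF740 on the opposite strand, a gene with 1065 to 1308 counts and a log2 fold change of -0.19 (edgeR adjusted p = 0.0612). The strand setting of the counting is not given in the sources used here, so reads from these genes cannot be told apart.

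ITGB2, the beta chain of the leukocyte integrins such as LFA-1, had the largest fold change of the 9 tested members, on few counts. It lies at chr21:44885953-44928815. There were 2, 4 and 6 counts in the controls and 12, 45 and 39 after knockdown. All IGF2BP1-KD libraries were above all control libraries, and IGF2BP1-KD library 1 was well below the other two of its group. Summed counts per library total were 8.10 times as high (exact 95% interval 4.43 to 16.2). In edgeR the log2 fold change was 2.98 (SE 0.60, 95% interval 1.65 to 4.30, adjusted p = 0.0050), and it ranged from 2.63 to 3.38 when each library was dropped. Even after this rise ITGB2 made up 0.930% ± 0.521 of the FPKM of the 8 beta subunits, against 0.0936% ± 0.0475 in IGF2BP1-NC. ITGB2-AS1 overlaps its exons by 303 bases on the opposite strand.

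The alpha chains that pair with ITGB2 were sparse as well. ITGAL, the alpha chain of LFA-1, had 1, 0 and 1 counts in the controls and 3, 6 and 4 after knockdown, and ITGAX, the alpha chain of a complement receptor, had 8, 5 and 5 against 17, 8 and 19. Neither passed the filter on low counts. ITGAM, another complement receptor chain, had 25, 26 and 22 counts against 19, 21 and 37, and was not called (log2 fold change 0.08, edgeR adjusted p = 0.871). Of the 13 granulocyte and monocyte markers 0 of the 4 tested were called, with summed levels of 31.1 to 42.2 CPM in IGF2BP1-NC and 38.0 to 66.3 CPM in IGF2BP1-KD. CAMP, a granule peptide gene, was picked after the values were seen from the 9 markers of that list with too few counts for the filter. It had 1, 1 and 0 counts against 1, 15 and 15, and the counts of the others are not given here. The part of these cell types in the ITGB2 counts was not tested.

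SELPLG, which encodes PSGL-1, the ligand of the selectins, rose from a moderate level. It lies at chr12:108621895-108633894. Its counts were 257, 273 and 368 in the controls and 796, 662 and 1239 after knockdown. The lowest IGF2BP1-KD library was above the highest control library, and library 3 was the highest within each group. The fitted level was 3.02 times that of the controls (log2 fold change 1.59, SE 0.27, 95% interval 0.91 to 2.28, edgeR adjusted p = 0.0103). Left out in turn, the 6 libraries gave log2 fold changes between 1.29 and 1.76. Without IGF2BP1-NC library 1 the call was lost (edgeR adjusted p = 0.0551), and it was kept in the other 15 alternatives run.

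ICAM1, a ligand of the ITGB2 integrins, did not differ beyond the spread between libraries. It lies at chr19:10271120-10286615. It had 757, 755 and 682 counts in the controls and 654, 632 and 830 after knockdown. The highest and the lowest value were both in IGF2BP1-KD, so that the groups overlapped. The log2 fold change was -0.05 (SE 0.11, 95% interval -0.28 to 0.19, edgeR adjusted p = 0.776), and the sign turned without IGF2BP1-KD library 1 (0.02) or 2 (0.01).

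CD47, which lies with integrins in the membrane, binds thrombospondin and signals through SIRPA on macrophages, showed a small difference. It lies at chr3:108043091-108091031. The 952, 903 and 887 counts of the IGF2BP1-NC libraries were all above the 839, 789 and 767 counts of the IGF2BP1-KD libraries. Without overlap between the groups, the log2 fold change of -0.19 (SE 0.071, 95% interval -0.35 to -0.032) did not pass the threshold in edgeR (adjusted p = 0.0695). It was not called in any of the 16 alternatives.

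Subunits were then compared as a ratio of FPKM within each library, for 6 pairs and with an exact permutation test (two-sided). All pairs but ITGB7/ITGB1, which are both beta chains, can form a heterodimer. With 3 libraries against 3 the smallest p this test can give is 0.1, which after Benjamini-Hochberg adjustment over the 6 pairs was 0.15. ITGAV stood at 11.9%, 10.5% and 11.5% of ITGB1 in the controls and at 7.94%, 9.07% and 10.01% after knockdown. The groups did not overlap, with a log2 ratio lower by 0.33 in IGF2BP1-KD (a difference of -0.33, exact p = 0.1). ITGA5 stood at 74.4%, 37.1% and 37.3% of ITGB1 against 32.6%, 31.9% and 36.8%. Here too the groups did not overlap (-0.48, exact p = 0.1, or -0.14 without IGF2BP1-NC library 1), but IGF2BP1-KD library 3 lay within 1 point of IGF2BP1-NC library 2.

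ITGA4 and ITGB7, the chains of the gut homing receptor, came closer in level after knockdown. The FPKM of ITGA4 was 297%, 345% and 479% of that of ITGB7 in the controls and 240%, 137% and 58.3% after knockdown. In IGF2BP1-KD library 3 alone ITGB7 was above ITGA4, and the difference in log2 ratio was -1.56 (exact p = 0.1), or -1.01 without that library. The ratio of ITGB7 to ITGB1, which compete for ITGA4, differed by 1.43 in log2 without overlap (exact p = 0.1). For ITGA4 to ITGB1 (-0.13, exact p = 0.7) and ITGA6 to ITGB1 (-0.12, exact p = 1.0) the groups overlapped. Since ITGB7 and ITGA6 rest on few counts, these ratios carry the counting error of both chains.

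Among the 18 alpha subunit genes of the human integrins, ITGA5 held the largest share of the summed FPKM, 60.1% ± 6.46 in IGF2BP1-NC and 45.8% ± 1.96 in IGF2BP1-KD. ITGA2B, the alpha chain of the platelet fibrinogen receptor, held 17.8% ± 3.37 and 32.5% ± 2.58, and ITGAV 14.7% ± 3.71 and 12.2% ± 1.08. For ITGA2B the counts were 741, 530 and 351 against 769, 745 and 679, which overlapped, and it was not called with all libraries (log2 fold change 0.44, edgeR adjusted p = 0.295). It was called without IGF2BP1-NC library 1 (0.74, edgeR adjusted p = 0.0230). The summed FPKM of the alpha subunits was 72.0 in that library and between 37.1 and 41.4 in the other 5. Of the 8 beta subunits ITGB1 held 84.9% ± 0.595 and 86.1% ± 0.412 of the summed FPKM, so that its share differed little while its level fell. ITGB5 followed with 10.8% and 8.96%, and ITGB3 with 3.31% and 2.27%.

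Of the 19 other integrin subunits 9 were tested, 2 were called lower and none higher. Called were thus 22.2% of those tested, against 28.2% of all tested genes. Without IGF2BP1-NC library 1, ITGA2B as given above and ITGB4, the beta chain of a laminin receptor (0.76, edgeR adjusted p = 0.0389), were called higher. The genes called lower with all libraries were both partners of ITGAV. ITGB3, the beta chain of the vitronectin and platelet fibrinogen receptors, had 209, 157 and 260 counts in the controls and 115, 102 and 128 after knockdown (log2 fold change -0.85, SE 0.18, edgeR adjusted p = 0.0056). ITGB5, the beta chain of another vitronectin receptor, had 728, 645 and 602 counts against 477, 424 and 416 (-0.58, SE 0.096, edgeR adjusted p = 0.0015). Neither pair of groups overlapped, and both calls held in the 16 alternatives run on each. ITGB5 was 1.49-fold lower, however, and so fell short of an added threshold of 1.5-fold. ITGB8, a further partner of ITGAV, was not called on 3 to 19 counts (-1.33, edgeR adjusted p = 0.0721), and ITGB6 had at most 3 counts in every library. ITGB3 is also a megakaryocyte marker, and the megakaryocyte markers GP9, GP1BA and PF4 had at most 3 counts in every library. GP6, the platelet collagen receptor and the marker of that list with the highest FPKM, was called lower as ITGB3 was, on 984, 575 and 604 against 439, 345 and 352 counts (-0.92, edgeR adjusted p = 0.0280). Its highest count was in IGF2BP1-NC library 1. ITGA2B, the only other tested marker of that list, went the other way (0.44), not called with all libraries and called higher without IGF2BP1-NC library 1. The part of such cells in the ITGB3 counts was not tested. ITGAE, the other partner of ITGB7, had 164, 185 and 171 against 200, 161 and 152 counts, and was not called (-0.01, edgeR adjusted p = 0.949).

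Ligands of integrins changed in both directions. Of 16 listed ligands 11 were tested, 3 were called higher and 4 lower. That is 63.6% of those tested, against 28.2% of all tested genes, in a list chosen with earlier results known. The median log2 fold change of the list was -0.05 against -0.00 over all tested genes. ICAM2, a ligand of LFA-1, rose from 991, 1095 and 1206 to 1487, 1373 and 1605 counts (log2 fold change 0.45, edgeR adjusted p = 0.0026), and ICAM4, the red cell member of this family, rose by 0.37 and ADAM15 by 0.23. ICAM5 fell from 1184, 1252 and 1140 to 772, 666 and 581 counts (-0.82, edgeR adjusted p = 0.00022). So the ICAM genes differed in direction, with ICAM1 not called between them. The matrix genes TNC (-2.15, on 59 counts in IGF2BP1-NC and 13 in IGF2BP1-KD) and NID1 (-1.21, on 75 and 32 counts) and the junction protein gene F11R (-0.26) also fell. TNC passed the filter through the control libraries alone. The call of NID1 was lost in 7 of 13 alternatives, among them every fit with 1 library fewer except that without IGF2BP1-KD library 3. That of ADAM15 was lost in 5 of 16, among them the fits without IGF2BP1-NC library 3 or any of the IGF2BP1-KD libraries, and that of TNC was lost without IGF2BP1-NC library 2 (edgeR adjusted p = 0.0525). TGFB1, a ligand of the ITGAV integrins in its latent form and the ligand gene with the highest FPKM, was not called (-0.05, edgeR adjusted p = 0.734). Of the ligands of the ITGA4 integrins, VCAM1 and MADCAM1 had at most 3 counts in every library. FN1 (fibronectin), which ITGA4 and ITGA5 integrins bind, had 776, 675 and 697 counts against 789, 703 and 1038 and was not called (0.24, edgeR adjusted p = 0.191). The 9 stromal and endothelial markers had a summed level of 56.6 to 81.6 CPM in IGF2BP1-NC and 37.2 to 52.4 CPM in IGF2BP1-KD, and CDH5 and KDR had at most 3 counts. Of the collagen genes of that list COL1A1 and COL3A1 were called lower, as TNC and NID1 were, and COL1A2 was tested but not called. Counts were 243, 221 and 135 against 91, 70 and 51 for COL1A1 (-1.49, edgeR adjusted p = 0.0034). For COL3A1 they were 247, 325 and 217 against 106, 94 and 77 (-1.51, edgeR adjusted p = 0.00028). The part of such cells in TNC and NID1 was not tested.

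Genes that activate integrins or link them to actin were called about as often as all genes. Among 39 listed genes 32 were tested, 2 were called higher and 6 lower, which is 25.0% of those tested against 28.2% of all tested genes, with a median log2 fold change of -0.07. PXN (paxillin), a focal adhesion scaffold, rose by 0.53 and RAPGEF1, an exchange factor for RAP1, by 0.38 on the log2 scale. PARVG, the parvin of blood cells, fell from 135, 158 and 174 to 70, 70 and 72 counts (-1.13, edgeR adjusted p = 0.00066). RASGRP2, a RAP1 activator of platelets, fell by 0.97, ZYX (zyxin) by 0.75 and ACTN4 (alpha-actinin) by 0.49 on the log2 scale, and PARVB and VCL were the other genes called lower. The call of RASGRP2 was lost without IGF2BP1-KD library 3 (edgeR adjusted p = 0.0565). TLN1, which encodes the talin that switches integrins on, had a log2 fold change of 0.07 (edgeR adjusted p = 0.487), and FERMT3, the kindlin of blood cells, 0.15 (edgeR adjusted p = 0.108). The groups did not overlap for FERMT3, and without IGF2BP1-NC library 1 it was called higher. FLNA (filamin A), the highest of the list by FPKM, was not called with all libraries (0.19, edgeR adjusted p = 0.0729) and was called without IGF2BP1-NC library 1 (0.24, edgeR adjusted p = 0.0120). TLN1 and FERMT3 were chosen for their roles after the values had been seen.

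Around CD47, only THBS1 and QPCTL of the 6 listed partners and modifiers were tested. THBS1, the thrombospondin that binds CD47 and integrins, rose from 40, 53 and 58 counts to 162, 200 and 212 (log2 fold change 1.93, SE 0.19, edgeR adjusted p = 8.0e-05). The groups were far apart, and the call held in the 14 alternatives run. QPCTL, the enzyme that modifies CD47 for SIRPA binding, was not called (-0.07, edgeR adjusted p = 0.704). SIRPA had 3, 3 and 2 counts in the controls and 18, 8 and 19 after knockdown, too few for the filter. Without IGF2BP1-NC library 1 it passed the filter, by its IGF2BP1-KD libraries, and was called higher (2.53, edgeR adjusted p = 0.0107).

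Of 14 genes for selectins and for the sugars that PSGL-1 needs to bind them, 8 were tested and 1 was called. This is 12.5% of those tested, against 28.2% of all tested genes. C1GALT1, which builds the core of its O-glycans, fell from 705, 655 and 677 to 552, 534 and 453 counts (log2 fold change -0.40, edgeR adjusted p = 0.0084). No gene of this list was called higher with all libraries, but without IGF2BP1-NC library 1, where the call of SELPLG was lost, C1GALT1C1, the chaperone of that enzyme, was called higher (0.35, edgeR adjusted p = 0.0481). SELP and SELE, the selectins of platelets and endothelium, and FUT7 and ST3GAL6, which finish the selectin-binding sugar, had at most 3 counts in every library. TPST2, a tyrosine sulfotransferase and the highest of the list by FPKM, had a log2 fold change of -0.18 and was not called (edgeR adjusted p = 0.101), while without IGF2BP1-NC library 1 it was called (-0.27, edgeR adjusted p = 0.0041).

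Of 26 other leukocyte adhesion genes 16 were tested, 1 was called higher and 3 lower. The share called was 25.0% of those tested, against 28.2% of all tested genes. CD44, the hyaluronan receptor, rose from 118, 93 and 135 to 339, 304 and 511 counts (log2 fold change 1.74, edgeR adjusted p = 0.00047). MCAM fell by 0.41, NECTIN2 by 0.32 and CD58, the ligand of CD2, by 0.24 on the log2 scale, the call of CD58 being lost in 8 of 16 alternatives and in every fit with 1 library fewer except that without IGF2BP1-NC library 1. The call of MCAM was lost without IGF2BP1-NC library 1 or 2 (edgeR adjusted p = 0.0601 and 0.0668), and that of NECTIN2 without IGF2BP1-KD library 2 (edgeR adjusted p = 0.0523). SPN (CD43), the highest of this list by FPKM, was not called (0.09, edgeR adjusted p = 0.344). Of the 9 tetraspanins that associate with integrins all 9 were tested and 2 were called higher (22.2%, against 28.2% of all tested genes). TSPAN32 rose from 256, 306 and 338 to 671, 518 and 548 counts (log2 fold change 0.95, edgeR adjusted p = 0.00028). CD9, on 7, 9 and 9 against 14, 18 and 21 counts, passed the filter through the IGF2BP1-KD libraries alone and was called at 1.08 (edgeR adjusted p = 0.0473), a call that was lost in 10 of 13 alternatives and whenever 1 library, whichever it was, was left out. CD151, the partner of the laminin-binding integrins and the highest of the list by FPKM, had a log2 fold change of 0.01 (edgeR adjusted p = 0.935).

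In all, the 7 lists held 129 genes besides the members, of which 87 were tested, 9 were called higher and 16 lower. That is 28.7% of those tested, against 28.2% of all tested genes, so the share was near the background. Their median log2 fold change was -0.01. Without IGF2BP1-NC library 1 there were 17 called higher, 8 of them also called with all libraries, and 16 called lower, 14 of them also called with all libraries.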

How the data were processed

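RNA-seq of 6 libraries, 3 of each group, was analysed. Per the methods, the libraries were made with a stranded mRNA kit, and the authors used Trimmomatic for trimming, HISAT2 for mapping to GRCh38 and HTSeq-count for counting. The deposited counts are unnormalized whole numbers, 1 per gene and library. The FPKM values that the authors deposited are described as made with Cufflinks and equalled counts over gene length and library size. Tool versions, the strand setting and the annotation release are not given in the sources used here, so the assignment of reads on overlapping genes is unknown.

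The counts were tested with edgeR 4.0.16 in R 4.3.3 (TMM factors, filterByExpr with a minimum count of 10, robust glmQLFit, glmQLFTest, two-sided), with Benjamini-Hochberg adjustment over all tested genes. Exact permutation tests used scipy 1.17.1, and tables and figures were made with Python 3.11.15, pandas 2.3.3 and matplotlib 3.10.9. Gene positions came from RefSeq on GRCh38, and exon overlaps and pseudogenes from GENCODE release 44. Alternatives were DESeq2 1.42.0, limma-voom and limma 3.58.1 on log2(FPKM + 1) or log2(FPKM + 0.1) with genes of mean FPKM of at least 1 or all genes, library sizes only, upper-quartile factors, no filter, at least 10 counts in every library, a fold of at least 1.5, the replicate number as a block, and each library left out in turn. On simulated counts for this comparison edgeR called 200 of 200 genes changed 2-fold and 15 unchanged genes among 12012. The changed genes were drawn from genes with higher mean counts than ITGB2, ITGB7 or CD9, and all genes were given the same dispersion. The simulation therefore does not measure how reliable calls on few counts are, or calls with 1 library apart.

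The members, the 7 adhesion lists and the 6 marker lists were chosen with earlier results of these data known. Genes named from a list were the called genes with the largest change, up to 4 in each direction, and the gene with the highest FPKM. Names added after the values were seen were those with too few counts, the other integrin subunits, TLN1, FERMT3, FN1, SIRPA, C1GALT1C1, the marker genes, PARVB, VCL and the neighbouring genes.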

Additional observations from a re-analysis of the deposited data

How the results depend on the processing

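Counts of alternatives given for single genes leave out the fold of at least 1.5. Apart from that threshold, ITGAV and ITGB1 kept direction and call in the 16 alternatives run on each. ITGB2 kept them in 12 of 13, its call being lost in limma on log2(FPKM + 1) without a filter (adjusted p = 0.0619). The members called higher were 1 instead of 3 with at least 10 counts in every library and in limma on log2(FPKM + 1), log2(FPKM + 0.1) and log2(FPKM + 1) without a filter, since ITGB2 and ITGB7 were mostly left out of these by the filters. With a fold of at least 1.5 the members called lower were 1 instead of 2, as ITGB1 was only 1.22-fold lower and ITGAV 1.53-fold. The listed genes called higher were then 4 instead of 9 and lower 7 instead of 16. The tested genes called higher were 667 instead of 1648 and lower 548 instead of 1738. The listed genes called lower were 10 in limma on log2(FPKM + 1) without a filter. Leaving out 1 library gave 2 to 3 members called higher and 2 to 3 called lower, 7 to 17 listed genes called higher and 12 to 16 lower, and 1144 to 1929 tested genes called higher and 1146 to 2062 lower. The highest count of listed genes called higher came without IGF2BP1-NC library 1, and the lowest count of tested genes called lower without IGF2BP1-KD library 2. The cause was not tested.

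Values near 0 changed sign. With a library left out the log2 fold change of ICAM1 ran from -0.175 to 0.024, that of CD151 from -0.0126 to 0.0258, that of QPCTL from -0.149 to 0.0338 and that of TGFB1 from -0.151 to 0.0436, and CD151 had -0.0017 without a filter on low counts. The difference in the log2 ratio of ITGA4 to ITGB1 was 0.12 on FPKM + 1 and -0.224 to 0.0549 with a library left out, that of ITGA6 to ITGB1 0.26 and -0.64 to 0.58, and that in the ITGA4 share of alpha subunits -0.40 to 0.15 points with a library left out. Both ITGA4 and ITGA6 rest on few counts.

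Libraries with the same number did not deviate together (r = -0.052, 0.036 and -0.11), and not every library correlated best with its own number. Over all pairs of a control and a knockdown library r lay between -0.11 and 0.095. Values this small cannot tell whether a number marks a shared batch. With the replicate number as a block edgeR called 2913 genes instead of 3386, and among members the call of ITGB7 was lost (log2 fold change 1.19, adjusted p = 0.0690). In that edgeR fit the adjusted p of SELPLG (7.3e-05) and ITGB2 (0.0015) was smaller than without the block. That of ITGAV (0.0030) and ITGB1 (0.011) was larger. The sign-flip test of same-numbered libraries cannot go below 0.25.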

Other observations

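For the called members with the largest rise and the largest fall, the genes with the most alike pattern were sought by the root mean square difference of centred log2 CPM over the 6 libraries, among the 9284 and 9283 other genes whose mean log2 CPM was 3 or more. For ITGB2 these were TINAGL1 (0.584), ESPN (0.585) and SLC4A1 (0.587), the last being the anion exchanger of red cells with 134, 174 and 286 counts in IGF2BP1-NC and 1150, 1111 and 1069 in IGF2BP1-KD. The differences are large for ITGB2, which has few counts and a low value in IGF2BP1-KD library 1 that none of the 3 shares. For ITGAV they were SLC25A29 (0.058), IMMP1L (0.060) and TCAF1 (0.062), each of which had lower counts in all IGF2BP1-KD libraries than in all control libraries. ITGA5 was added after its values were seen. Its nearest genes were THEMIS2 (0.097), PMAIP1 (0.10) and FUT1 (0.11), and each of them had its highest count in IGF2BP1-NC library 1, as THEMIS2 with 361 counts against 142 and 140 in the other control libraries.

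CD99, a leukocyte adhesion gene of the lists, had 212 counts in IGF2BP1-NC library 1, 11 and 19 in libraries 2 and 3 of that group and 14, 18 and 15 in the IGF2BP1-KD libraries. It was not called (log2 fold change -2.35, edgeR adjusted p = 0.279), and it was singled out after its values were seen. SLAMF7, a surface receptor of plasma cells and natural killer cells, was the plasma cell marker called, with 4, 5 and 4 counts in IGF2BP1-NC and 52, 42 and 181 in IGF2BP1-KD (log2 fold change 4.37, edgeR adjusted p = 0.0088), having passed the filter on low counts through the IGF2BP1-KD libraries alone. Like SELPLG and ITGB7, it was highest in IGF2BP1-KD library 3, while ITGB2 was highest in IGF2BP1-KD library 2.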
